A study of Mus musculus with 6 samples.

Results

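The genes described here are 10 genes of iron and heme handling: the exporter Slc40a1, the heme oxygenase Hmox1, the metal transporters Slc11a1 and Slc11a2, the transferrin receptor Tfrc, transferrin itself (Trf), the ferritin chains Fth1 and Ftl1, the ferric reductase Steap3 and the biliverdin reductase Blvrb. They were taken by symbol from the 26110 genes of the deposited table, and all 10 were found there once. The members were chosen by their deposited values in this comparison: the list was drawn up with the differences between the sorted populations in these same 6 libraries already known, so that the difference of each of the 10 genes is given as a description with no p.

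MHCII-hi cells were profiled by bulk RNA-seq after sorting from the muscularis externa (ME), the outer muscle layer, of the small bowel. All mice were naive and carried the genotype CX3CR1+/GFP, a heterozygous knock-in that puts GFP under the Cx3cr1 promoter and that both groups shared, on a C57BL/6 background. Ages are not given in the sources used here. The groups were 3 libraries of MHCII-hi CX3CR1- cells and 3 libraries of MHCII-hi CX3CR1+ cells, which the sample labels name dendritic cells and the study treats as macrophages. The comparison asked how the transcriptome of the CX3CR1- cells differed from that of their CX3CR1+ neighbours. The ME of several mice was pooled for sorting, and nothing states that each library had a pool of its own, so the spread between libraries may be technical in part and the p-values measure no more than that spread.

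Iron enters cells bound to transferrin through the transferrin receptor, or as heme taken up with hemoglobin and dying cells. Heme oxygenase opens heme and frees its iron, biliverdin reductases turn the biliverdin into bilirubin, and transporters of the Slc11 family carry iron out of endosomes and phagosomes. Iron in the cytosol is stored in ferritin, a shell of heavy and light chains, or leaves through ferroportin, the product of Slc40a1. Tissue macrophages are known for recycling the iron of ingested red cells, and the transcription factors NRF2, BACH1 and SPI-C are known regulators of this set of genes.

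Several of these transcripts are also controlled after transcription. Iron regulatory proteins bind a hairpin in the UTR, the iron-responsive element, and block translation when it lies in the 5' UTR or stabilise the transcript when it lies in the 3' UTR. The GENCODE M21 transcripts of the 10 genes (GRCm38) were searched for the loop letters CAGTG with a C at the sixth base before them, and the 5 bases on either side of the loop were scored for pairing. UTR sites with at least 4 of 5 pairs were found in 5 of the 10 genes, Slc40a1, Slc11a2, Tfrc, Fth1 and Ftl1. Over all 21877 genes only the longest protein-coding transcript of each was searched, and 4.31% held such a site. The sites of the 5 genes lie in their longest transcripts too. The sites of 30 bases are shown because they match the letters and pairing of this element, which acts on translation in the 5' UTR and on transcript stability in the 3' UTR. Whether the sites act in these cells was not tested. Capitals mark the loop letters.
Slc40a1, 5' UTR, chr1:45925466-45925495, minus strand: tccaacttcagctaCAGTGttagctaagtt
Fth1, 5' UTR, chr19:9982730-9982759, plus strand: gtttcctgcttcaaCAGTGcttgaacggaa
Ftl1, 5' UTR, chr7:45459780-45459809, minus strand: gtgtcttgcttcaaCAGTGtttgaacggaa
Slc11a2, 3' UTR, chr15:100395154-100395183, minus strand: ggagccatcagagcCAGTGtgtttctatgg
Tfrc, 3' UTR, chr16:32631217-32631246, plus strand: ataattatcggaagCAGTGccttccataat
Tfrc, 3' UTR, chr16:32631596-32631625, plus strand: cacattatcgggagCAGTGtcttccataat
Tfrc, 3' UTR, chr16:32631661-32631690, plus strand: gtctatatcggagaCAGTGatctccatatg
Tfrc, 3' UTR, chr16:32631708-32631737, plus strand: gtaattatcgggaaCAGTGtttcccataat

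The sites of Slc40a1, Fth1, Ftl1 and Tfrc had 5 of 5 pairs, and that of Slc11a2 had 4 of 5. In the longest transcripts of all genes, a site with all 5 pairs was found in the 5' UTR of 20 genes (0.0914%) and in the 3' UTR of 118 genes (0.539%). The Fth1 site lay in 3 of 3 complete transcripts, and the sites of Ftl1, Slc11a2 and Tfrc each lay in 1 of 2. The deposited values are per gene, so the transcripts of these 3 genes with and without a site cannot be told apart. In the other 5 genes the loop letters occurred as well, but in coding sequence or, in the 3' UTRs of Slc11a1 and Steap3, with at most 2 of 5 pairs. No more than that is read from it.

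**Figure D1:**
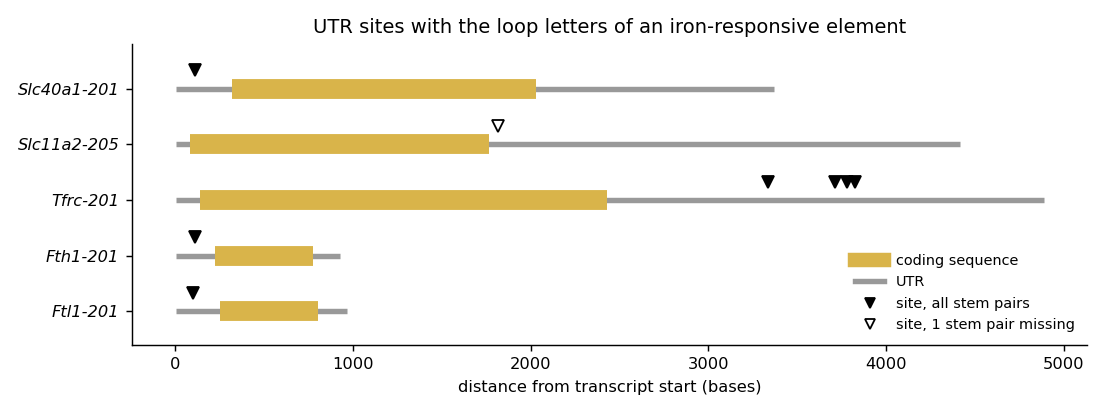
Transcripts of the 5 genes with UTR sites, drawn to scale in bases from the transcript start, with the coding sequence as a thick bar, the UTR as a thin line and a triangle at each site. Slc40a1, Fth1 and Ftl1 carry the site before the coding sequence, Tfrc carries 4 sites and Slc11a2 carries 1 site after it.

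The libraries held between 5346379 and 17616748 reads assigned to genes, estimated from the value of a single read, and 3 reads corresponded to normalized values between 1.39 and 5.37. The sorted marker was as labelled, since Cx3cr1 read 23.2, 18.9 and 28.5 in CX3CR1- replicates 1, 2 and 3 and 371, 380 and 347 in the CX3CR1+ replicates. Mitochondrially encoded genes took 47.5 to 54.9% of the normalized total in CX3CR1- and 18.1 to 21.2% in CX3CR1+ libraries. The 10 macrophage markers (Csf1r, Adgre1, Mrc1 and others) summed to values from 10410 to 13117 in CX3CR1- and from 54921 to 61391 in CX3CR1+ libraries, and each of the 10 was lower in every CX3CR1- library. All 9 markers of conventional dendritic cells (sums 3662 to 4229 against 282 to 330), all 12 of enterocytes (19140 to 33751 against 95.9 to 135) and all 6 of fibroblasts (4117 to 12168 against 181 to 316) were higher in every CX3CR1- library. The enterocyte markers Fabp1, Apoa4, Alpi, Krt20, Lct and Cdx1 lay at or under 3 reads in all CX3CR1+ libraries. Marker sums of smooth muscle, enteric neurons, T and NK cells, neutrophils and red blood cells overlapped. Those of B and plasma cells (1409 to 3671 against 58.6 to 89.3), mesothelium (162 to 382 against 13.0 to 38.8) and enteric glia (205 to 541 against 63.4 to 88.0) were higher in every CX3CR1- library. So were those of endothelium, mast cells, eosinophils and hepatocytes. Few markers of some types were found: 1 of 5 for mast cells (Kit), 2 of 6 for hepatocytes, 2 of 3 for eosinophils and 1 of 6 for neutrophils (Mpo). The hepatocyte sums were low (5.37 to 23.9 against 0 to 2.31). The part of these differences in the values below was not tested, and in bulk RNA fewer cells of a type cannot be told apart from less RNA per cell.

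The 10 genes had a median log2 difference, CX3CR1- minus CX3CR1+, of -1.59, beside -0.0035 over all 17812 genes tested. In 8 of them every CX3CR1- library lay below every CX3CR1+ library, in Steap3 every CX3CR1- library lay above, and in Tfrc the groups overlapped. Among all tested genes, 19.8% had the CX3CR1- libraries below and 20.3% had them above without overlap. A gene is written here as called when its log2 fold change reached 1 in either direction and its adjusted p did not exceed 0.05. By this threshold, 7 of the 10 were lower and 1 was higher in CX3CR1- cells, beside 8.15% and 12.2% of all tested genes. These differences chose the members, and the counts are a description.

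**Figure D2:**
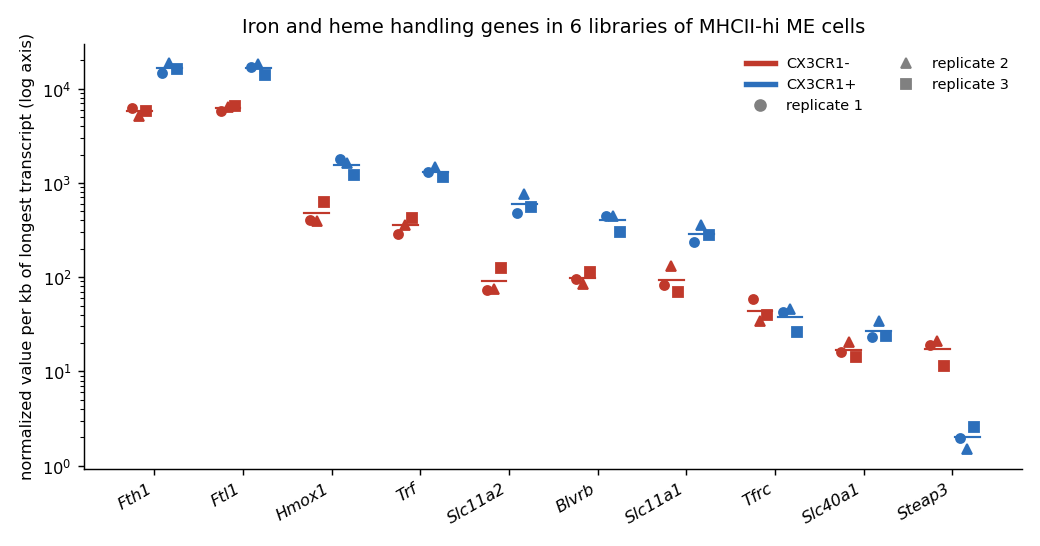
Normalized value per kb of the longest transcript (log axis) of each of the 10 genes in the 3 CX3CR1- (red) and 3 CX3CR1+ (blue) libraries, with marker shape for the replicate and a line at each group mean. The blue points lie above the red points in 8 genes, below them in Steap3, and among them in Tfrc.

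Uptake and endosomal release of iron were described by Tfrc, Trf, Steap3, Slc11a1 and Slc11a2. Tfrc, which takes up iron-loaded transferrin, read 287, 168 and 192 in CX3CR1- replicates 1, 2 and 3 and 207, 224 and 129 in CX3CR1+ replicates 1, 2 and 3. The ranges overlapped, and the log2 difference was 0.21 (SE 0.30), turning to -0.01 without CX3CR1- replicate 1 and to -0.03 without CX3CR1+ replicate 3. Trf, the carrier protein, read 745, 918 and 1089 against 3319, 3755 and 2968, so that its highest CX3CR1- library lay far below its lowest CX3CR1+ library. Its log2 difference was -1.88 (SE 0.18). Of the 31-base stretches of Trf, 60.6% also occur in the overlapping gene Gm20425, which is not analysed here, and reads of the 2 genes may have been split between them.

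Steap3, the endosomal reductase that turns ferric into ferrous iron, was the member that went the other way. It read 99.0, 108 and 59.5 in CX3CR1- replicates 1, 2 and 3 and 10.03, 7.67 and 13.2 in CX3CR1+ replicates 1, 2 and 3, with no overlap and a mean 8.62-fold higher in CX3CR1- cells (log2 difference 2.97, SE 0.41). Its CX3CR1+ values were low but above 3 reads in each library, and with a pseudocount of 10 the difference was 2.25. Among all tested genes, the 3 with the log2 profile nearest to that of Steap3 over the 6 libraries were Reep6 (distance 0.378), Nhsl1 (0.466) and Alcam (0.491), the last an adhesion molecule.

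Slc11a2 (DMT1), the ferrous iron transporter of endosomes and of the enterocyte brush border, showed the largest negative difference of the 10. It read 324, 327 and 555 in CX3CR1- cells and 2136, 3336 and 2429 in CX3CR1+ cells (log2 difference -2.73, SE 0.25), a mean 6.56-fold higher in CX3CR1+ cells. CX3CR1- replicate 3 was the highest of its group, and the groups were still far apart. The macrophage marker sum differed 4.80-fold in the same direction, and the enterocyte marker sum differed in the opposite direction. The part of either cell type in the Slc11a2 difference was not tested. The nearest profiles belonged to Ier3 (distance 0.210), the chemokine Ccl2 (0.395) and Ninj1 (0.409).

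Slc11a1 (NRAMP1), the transporter of phagosome membranes, read 193, 303 and 159 in CX3CR1- cells and 544, 818 and 649 in CX3CR1+ cells, with a log2 difference of -1.65 (SE 0.27). CX3CR1- replicate 2 stood highest in its group and CX3CR1+ replicate 2 highest in the other. The ratio of Slc11a2 to Slc11a1 values was taken within each library, where a scaling factor per library cancels but quantile normalization does not. It was 1.68, 1.08 and 3.49 in CX3CR1- and 3.93, 4.08 and 3.74 in CX3CR1+ replicates. The ratio of Slc11a2 to Tfrc was 1.13, 1.95 and 2.89 against 10.3, 14.9 and 18.9. Neither ratio overlapped between the groups, that to Slc11a1 by a small gap (3.49 against 3.74). Both ratios restate the differences that chose the members and are a description. A 3' UTR site of the kind printed above lies in 1 of 2 transcripts of Slc11a2 and of Tfrc.

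Heme breakdown was described by Hmox1 and Blvrb. Hmox1, the inducible heme oxygenase, read 637, 623 and 975 in CX3CR1- replicates 1, 2 and 3 and 2800.2, 2522 and 1925 in CX3CR1+ replicates 1, 2 and 3. The highest CX3CR1- library, replicate 3, lay below the lowest CX3CR1+ library, and the log2 difference was -1.71 (SE 0.22). Blvrb, which reduces biliverdin and flavins, read 97.5, 87.0 and 117 against 461, 458 and 312, with a log2 difference of -2.01 (SE 0.25). Both genes were highest in replicate 3 among the CX3CR1- libraries and lowest in replicate 3 among the CX3CR1+ libraries. The ratio of Hmox1 to Blvrb lay between 6.54 and 8.35 in CX3CR1- and between 5.51 and 6.16 in CX3CR1+ libraries. It was higher in CX3CR1- cells without overlap, but differed little beside the 3.24-fold and 4.09-fold differences of the genes themselves.

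Hmox2 and Blvra, which also encode a heme oxygenase and a biliverdin reductase, were measured too and are not among the 10. Hmox2, the constitutive heme oxygenase, read 139, 87.5 and 126 against 228, 182 and 204, and its log2 fold change of -0.82 (limma adjusted p = 0.0415) stayed under the fold threshold. Blvra, the other biliverdin reductase, was called lower in CX3CR1- cells (log2 fold change -1.27, adjusted p = 0.0221). The ratio of Hmox1 to Hmox2 was 4.60 to 7.75 in CX3CR1- and 9.45 to 13.8 in CX3CR1+ libraries, and that of Blvrb to Blvra was 1.17 to 2.09 and 2.43 to 3.06, with no overlap in either.

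Storage was described by the ferritin chains. Fth1, the heavy chain with the ferroxidase centre, read 9384, 7671 and 8615 in CX3CR1- and 22038, 27748 and 24143 in CX3CR1+ replicates, with a log2 difference of -1.52 (SE 0.14). Ftl1, the light chain, read 5589, 6129.9 and 6336 against 16338, 17798 and 13514, with a log2 difference of -1.39 (SE 0.14). The means differed 2.88-fold and 2.64-fold, with neither gene overlapping between the groups. Per library the ratio of Fth1 to Ftl1 was 1.68, 1.25 and 1.36 in CX3CR1- and 1.35, 1.56 and 1.79 in CX3CR1+ cells, so that the heavy to light balance overlapped.

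Ferritin was among the most abundant RNAs of both populations. In CX3CR1- libraries, Fth1 and Ftl1 together made up 0.124 ± 0.00754% of all normalized values (SD, n = 3). In CX3CR1+ libraries their joint share was 0.508 ± 0.0427% (SD, n = 3). When the mitochondrially encoded genes were taken out of the total, the shares were 0.257 ± 0.0278% and 0.631 ± 0.0501% (SD, n = 3). The difference was then smaller, and the lowest CX3CR1+ library (0.598%) still lay above the highest CX3CR1- library (0.279%). Of the 31-base stretches of Ftl1, 54.4% recur in the pseudogene Ftl1-ps1, which read 427 to 543 in CX3CR1- and 1105 to 1343 in CX3CR1+ libraries, and reads of the 2 cannot be assigned with certainty.

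**Figure D3:**
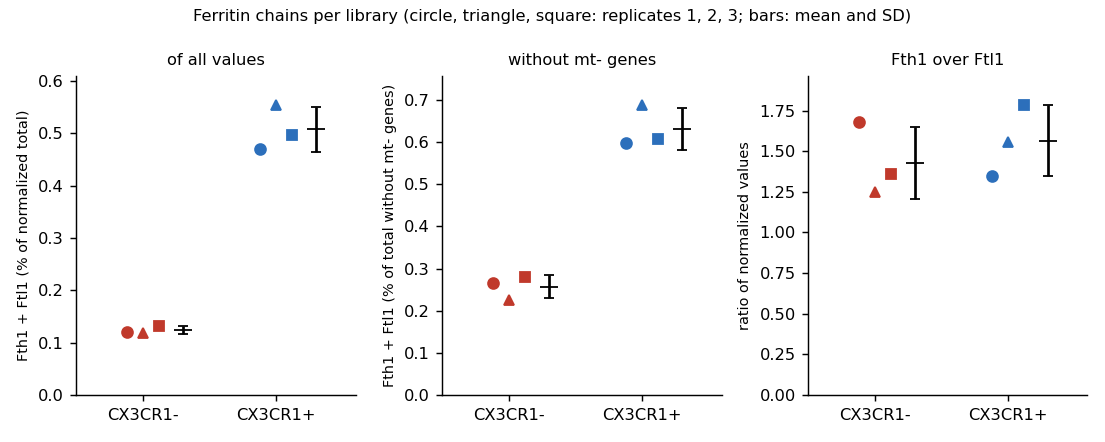
Fth1 plus Ftl1 as percent of the normalized total (left), the same without mitochondrially encoded genes (middle) and the ratio of Fth1 to Ftl1 (right) in each library, with the group mean and SD as a bar. The shares separate the groups on both denominators, with 0.257% against 0.631% in the middle panel, and the ratios overlap.

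Export was described by Slc40a1 (ferroportin), the only known exporter of iron from cells. It read 54.2, 68.6 and 48.4 in CX3CR1- and 77.2, 116 and 79.1 in CX3CR1+ replicates. The groups did not overlap, but the gap between CX3CR1- replicate 2 and CX3CR1+ replicate 1 was small beside the spread within each group, and the log2 difference of -0.65 (SE 0.30) was not called. Without CX3CR1+ replicate 2 it was -0.46. The ratio of Slc11a2 to Slc40a1 was 4.76 to 11.5 in CX3CR1- and 27.7 to 30.7 in CX3CR1+ libraries. It restates that Slc11a2 differed by more than Slc40a1, and these differences chose the members.

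**Figure D4:**
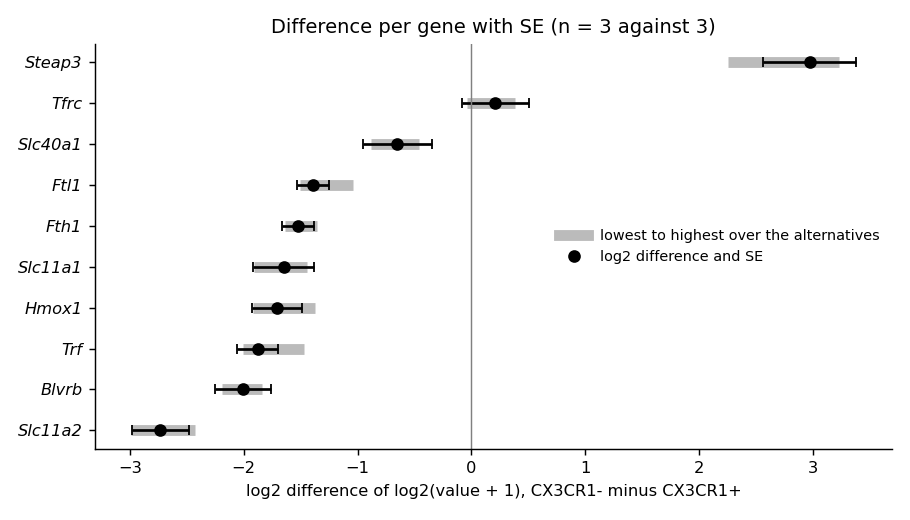
Log2 difference of log2(value + 1), CX3CR1- minus CX3CR1+, for the 10 genes with the SE from 3 against 3 libraries (black) and the range over the alternative settings (grey). From bottom to top the values run from -2.73 for Slc11a2 to 2.97 for Steap3, and the grey range crosses 0 in Tfrc alone.

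Levels of different genes were compared per kb of the longest protein-coding transcript. In CX3CR1+ cells Fth1 (16495 ± 1933 per kb, SD, n = 3) and Ftl1 (16409 ± 2249.6) came first and overlapped, followed by Hmox1 (1539.7 ± 285) and Trf (1302 ± 153), which overlapped too. Slc11a2 (597 ± 142) came next, apart from both of its neighbours, then Blvrb (399 ± 82.6) and Slc11a1 (290 ± 59.8), which overlapped. Tfrc (38.1 ± 10.4) and Slc40a1 (26.9 ± 6.46) overlapped, and Steap3 (1.99 ± 0.537) was last and apart. Both ferritin chains ranked between 14 and 22 of 16768 genes with a length in every CX3CR1+ library, and between 33 and 40 in every CX3CR1- library.

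In CX3CR1- cells the order began in the same way, with Ftl1 (6217 ± 398, SD, n = 3) and Fth1 (5727 ± 574) overlapping, then Hmox1 (475 ± 127) and Trf (357 ± 66.9). Blvrb (97.7 ± 14.7), Slc11a1 (94.3 ± 32.5) and Slc11a2 (91.0 ± 30.1) were neighbours that overlapped, whereas Slc11a2 stood above both in CX3CR1+ cells. Tfrc (44.1 ± 12.9) followed, and Steap3 (17.2 ± 4.98) and Slc40a1 (16.9 ± 3.07) overlapped at the end of the list. With the length of the principal Slc11a2 transcript, its mean level per kb was 133 in CX3CR1- and 871 in CX3CR1+ cells. For Fth1 the length used was 1494 bases, and another complete transcript, Fth1-201, has 929 bases. The shorter length would raise the Fth1 level per kb in both groups. The order, overlap and ranks of Fth1 and Ftl1 thus depend on the transcript taken.

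To place the 10 genes in their pathways, 89 other iron and heme genes in 8 lists were taken through the test across all genes. Of these, 73 reached a mean of at least 10, of which 12 were called lower and 6 higher in CX3CR1- cells, which is 16.4% and 8.22% beside 8.15% and 12.2% of all tested genes. Their median log2 fold change was -0.10. Hamp, Hjv, Tmprss6, Ftmt, Steap1, Hpx and Ambp were not analysed here, and the other 9 had means under 10.

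Among the heme breakdown genes and their regulators, 6 of 9 were called lower and none higher by limma, with a median of -1.15. At an unadjusted p under 0.05, 7 were lower and 1 was higher. They were Spic, the SPI-C gene of iron-recycling macrophages (-2.32, adjusted p = 0.000668), Nfe2l2, which encodes NRF2 (-1.61, adjusted p = 4.28e-05), its partner Mafg (-1.57, adjusted p = 0.00615), Blvra, the heme-sensing repressor Bach1 (-1.15, adjusted p = 0.00258) and Maff (-1.05, adjusted p = 0.00627). Spic read 45.2, 39.5 and 74.8 in CX3CR1- and 179.9, 313 and 312 in CX3CR1+ libraries, and Nfe2l2 read 2484, 2475 and 2661 against 6476, 8647 and 8279. The transcripts of the activator and of the repressor were thus both called lower in CX3CR1- cells, that of Bach1 with a fold under the threshold on quantile normalization (-0.80) and on equal totals without mitochondrially encoded genes (-0.97). Keap1, which holds NRF2 in the cytosol, had a log2 fold change of 0.87 and was not called (adjusted p = 0.121), but passed both thresholds without CX3CR1- replicate 3 (1.16, adjusted p = 0.0478). Blvra and Maff were not called in all fits: without a single library the limma adjusted p of Blvra ranged up to 0.100 (CX3CR1+ replicate 2 left out), 0.0690 (CX3CR1+ replicate 1) and 0.0577 (CX3CR1- replicate 1), and its fold change was -0.98 without CX3CR1- replicate 2. Maff had -0.98 without CX3CR1- replicate 1 and -0.80 without CX3CR1+ replicate 2.

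Most other target genes of NRF2 and BACH1 were not called. Of 10 tested by limma, none was called lower and 2 were called higher, with a median of 0.07. At an unadjusted p under 0.05, 1 was lower and 3 were higher. Gclm, a subunit of the glutathione-making ligase, was higher in CX3CR1- cells (148, 280.3 and 153 against 65.4, 46.4 and 46.6, log2 fold change 1.81, adjusted p = 0.00246). Nqo1, a quinone reductase, read 21.9, 28.6 and 18.9 in CX3CR1- cells and at or under 3 reads in all CX3CR1+ libraries, which makes it at least 5.45-fold higher (adjusted p = 0.00393), or 9.41-fold without CX3CR1+ replicate 3. It was under the mean of 10 and not tested without CX3CR1- replicate 1 or 2. The other 8, with log2 fold changes from -0.72 for Txnrd1 to 1.32 for Me1, were not called. The promoters listed for 6 of the 10 members in RefSeq (12 windows of 300 bases, GRCm38.p6) were searched on both strands for the core letters of the antioxidant response element, TGACNNNGC, and of the Maf recognition element, GCTGAGTCA. None held either, whereas 12.4% and 0.454% of all 32851 promoters did, which says only that these letters were not in those windows.

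In the list of heme and hemoglobin uptake and heme transport, 1 of 8 was called by limma, with a median of 0.08, and at an unadjusted p under 0.05 it was again 1 lower and 0 higher. Cd163, the scavenger receptor for haptoglobin-bound hemoglobin, was lower in CX3CR1- cells (758, 762 and 975 against 3139.6, 2902 and 2741, log2 fold change -1.82, adjusted p = 3.37e-05). Lrp1, the hemopexin receptor, had 0.26 (adjusted p = 0.325) and Slc48a1, the heme transporter of the phagolysosome, had 0.38 (adjusted p = 0.534). The 8 red cell markers listed summed to 36.5 to 232 in CX3CR1- and 104 to 179.7 in CX3CR1+ libraries, which overlapped, with 2 markers higher and 2 lower in every CX3CR1- library. Hba-a2, an alpha globin, reached at most 43.7 in CX3CR1- and 0.901 in CX3CR1+ libraries, whereas Ermap had means of 22.9 and 92.2 and Epb42 of 13.6 and 36.1. The hepatocyte marker Fgb reached at most 23.9 and 0.

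Of the genes of iron export, oxidation and hepcidin control, 2 of 6 were called lower and 2 higher, with a median of -0.44. Of the multicopper ferroxidases, which oxidise exported iron for loading onto transferrin, Cp and Heph were called in opposite directions, and Hephl1 (4.17, 12.5 and 0.997 against 0 in all CX3CR1+ libraries) was under the mean of 10 and not tested. Cp, ceruloplasmin, read 93.3, 54.7 and 146 in CX3CR1- and 1128, 1256 and 962 in CX3CR1+ libraries (log2 fold change -3.60, adjusted p = 3.43e-05). Heph, hephaestin, known for its part in enterocytes, read 44.9, 22.9 and 5.93 in CX3CR1- libraries and 0 in all CX3CR1+ libraries. This makes it at least 5.78-fold higher in CX3CR1- cells (limma adjusted p = 0.0117). The marker sums of enterocytes and of several other cell types were higher there too, and their part in the Heph difference was not tested. Without CX3CR1- replicate 1 the bound was 3.39-fold and the gene was under the mean of 10 and not tested, and without CX3CR1+ replicate 3, the shallowest library, the bound was 9.99-fold. Of the bone morphogenetic proteins that control hepcidin, Bmp2 was lower (117, 60.8 and 305 against 1326, 1602 and 1189.8, log2 fold change -3.38, adjusted p = 0.000502) and Bmp6 higher in CX3CR1- cells (18.4, 25.2 and 9.45 against 4.88, 1.44 and 1.25, log2 fold change 2.45, adjusted p = 0.0417). The call of Bmp6 was lost without CX3CR1+ replicate 1 (adjusted p = 0.0653), replicate 2 (0.132) or replicate 3 (0.126). Without CX3CR1- replicate 1 or 2, Bmp6 was under the mean of 10 and not tested.

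Of the genes of iron uptake, reduction and transport, 3 of 11 were called lower and 1 higher, with a median of 0.50. The 3 lower genes were Slc39a8, a zinc and iron importer (-1.28, adjusted p = 0.0151), Mcoln1, an endolysosomal cation channel (-1.23, adjusted p = 0.00666), and Slc25a28, a mitochondrial iron carrier (-1.20, adjusted p = 0.0329). Steap4, a metalloreductase of the same family as Steap3, was higher like its relative (138, 122 and 209 against 20.8, 36.1 and 38.2, log2 fold change 2.27, limma adjusted p = 0.00101). Steap2, also of this family, overlapped between the groups and was not called (0.83, adjusted p = 0.388). It passed both thresholds without CX3CR1- replicate 2 (1.57, adjusted p = 0.0316). Cybrd1, the reductase of the duodenal brush border, had 0.81 (adjusted p = 0.244), Slc39a14 had 0.50 (adjusted p = 0.369) and Slc25a37, the other mitochondrial carrier, had 0.56 (adjusted p = 0.0641). Slc39a8 was not called without CX3CR1+ replicate 1 (adjusted p = 0.0747) or replicate 2 (0.0675), and Slc25a28 was not called without CX3CR1- replicate 1 (0.0924) or 3 (0.0812) or CX3CR1+ replicate 2 (0.136) or 3 (0.124).

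None of the 6 tested genes of iron storage, chaperones and sensing was called by limma, with a median of -0.14, and at an unadjusted p under 0.05 there were 2 lower and 1 higher. Ncoa4, the receptor that delivers ferritin to the lysosome, came nearest, with 649, 434 and 445 against 955, 938 and 942 (log2 fold change -0.92, adjusted p = 0.00705), and it passed both thresholds without CX3CR1- replicate 1 (-1.10). The genes of the iron regulatory proteins, which bind iron-responsive elements, were Aco1 and Ireb2. Aco1 had 0.83 (limma adjusted p = 0.0712). Ireb2 read 281 ± 4.98 (SD, n = 3) in CX3CR1- and 301 ± 37.0 in CX3CR1+ cells (-0.09, adjusted p = 0.789). Without CX3CR1- replicate 3, Aco1 had 1.09 (adjusted p = 0.0204).

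Heme synthesis and iron-sulfur cluster assembly, the main uses of iron in mitochondria, held a single called gene. Of 10 heme synthesis genes 0 were called lower, also at an unadjusted p under 0.05, and 1 was called higher, Slc25a38, the mitochondrial glycine carrier (1.31, adjusted p = 0.0332), and the median was 0.28. Alas1, the first enzyme of the pathway, had 0.26 (adjusted p = 0.688) and Fech, which inserts the iron, had 0.08 (adjusted p = 0.845). The call of Slc25a38 was lost without CX3CR1- replicate 1 (adjusted p = 0.0617), 2 (0.0789) or 3 (0.0555) or CX3CR1+ replicate 1 (0.0568) or 2 (0.130). Of 13 iron-sulfur cluster genes none was called by limma, 0 had an unadjusted p under 0.05, and the median was -0.23.

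**Figure D5:**
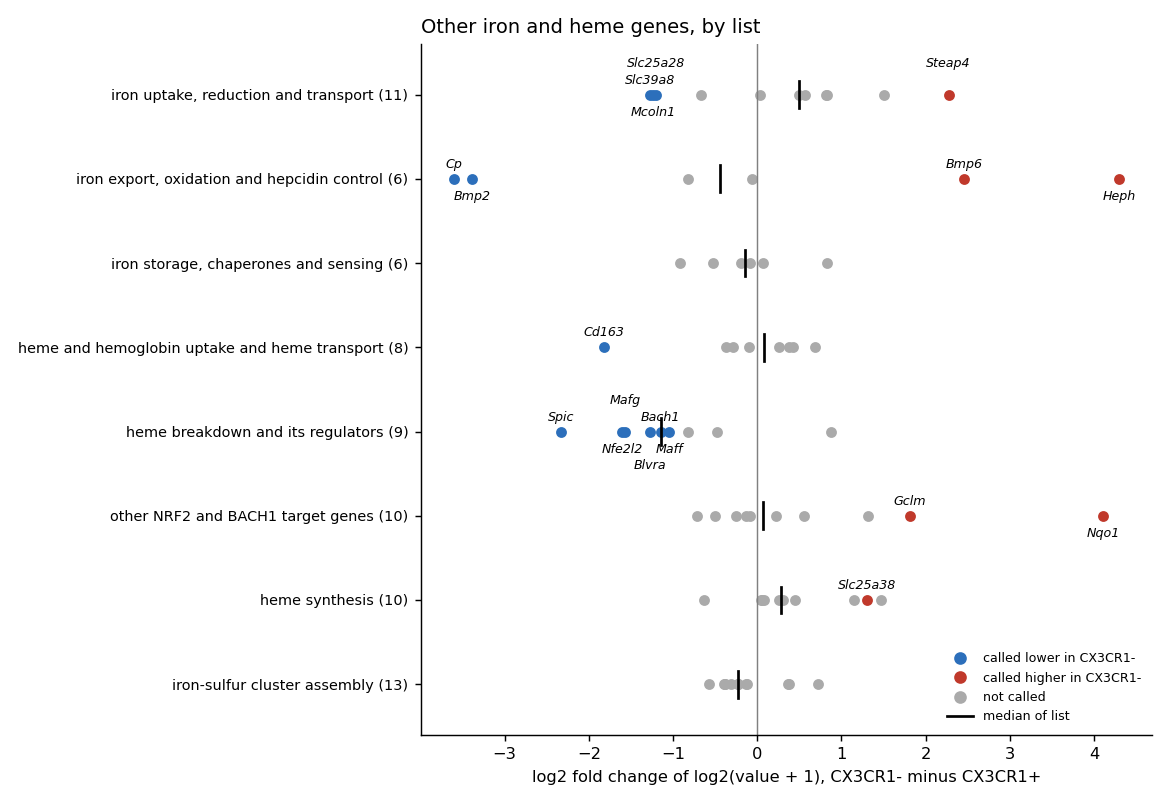
Log2 fold change, CX3CR1- minus CX3CR1+, of the 73 tested genes of the 8 lists (number of genes in parentheses), with called genes in colour and named and a black line at each list's median. Called genes lie on the left in heme breakdown (6 of 9), on both sides in iron export (2 and 2 of 6), and none is coloured in iron-sulfur cluster assembly.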

How the data were processed

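The data are 6 bulk RNA-seq libraries, 3 of each sorted population, grouped by their labels and numbered within a group in accession order. The authors pseudoaligned the reads to the mouse transcriptome (mm10, GENCODE M16) with Kallisto, summed the estimated counts per gene with tximport and normalized between libraries with DESeq2. This normalized signal is what the authors deposited, and it was used without further scaling. The value of 1 read in a library was taken as the smallest value shared by at least 100 genes, which gave the approximate depth and the value of 3 reads. A fold against a group at or under 3 reads in every library is a lower bound, taken against the highest such value of that group. It covers counting error only.

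The 17812 genes whose mean reached 10 were fitted on the log2(value + 1) scale with limma 3.58.1 in R 4.3.3 (lmFit, eBayes with trend, two-sided, Benjamini-Hochberg adjustment over all tested genes), as tested on simulated data. The members, the gene lists and the tests were chosen with earlier results of these data known. The genes named are the 10 members, up to 3 called genes per list and direction with the largest change, 18 genes named irrespective of their change, up to 3 markers per cell type list and the 3 genes nearest in profile (Euclidean distance of centred log2 values) to the members with the largest differences. Maff, Keap1, Txnrd1, Me1, Hephl1, Steap2, Ermap, Epb42 and the markers at or under 3 reads were named, and the ratios between genes formed, after values had been seen. Transcripts, lengths and shared sequence of 31 bases came from GENCODE M21 (GRCm38), promoters from RefSeq. Values were tabulated with Python 3.11.15 (pandas 2.3.3) and plotted with matplotlib 3.10.9. The alternatives were other pseudocounts (0.5 and 10), low-value filters, scalings, variance settings, a block of adjacent library numbers and leaving out each library.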

Additional observations from a re-analysis of the deposited data

How the results depend on the processing

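Of the 18 other iron and heme genes called, 11 were called under each of the 16 alternatives that tested them (Cp, Bmp2, Cd163, Spic, Nfe2l2, Mafg, Mcoln1, Heph, Steap4, Gclm and Nqo1). The number called lower was 12, and it ranged from 8 to 12, with 8 on equal totals without mitochondrially encoded genes and 8 without CX3CR1+ replicate 2. The number called higher was 6, it was 2 with a mean of at least 50, where fewer genes were tested, and it ranged from 3 (without CX3CR1- replicate 1) to 7 (without CX3CR1- replicate 3) when a library was left out. Bach1 and Maff fell under the fold threshold on quantile normalization (-0.80 and -0.70) and on equal totals without mitochondrially encoded genes (-0.97 and -0.87). On the latter scaling Blvra (adjusted p = 0.053) and Slc25a28 (0.0534) were also lost, as they were with no trend (0.0553 and 0.0649), and Slc25a38 had 0.99 on quantile normalization. Over all genes, the median was -0.16 and 0.17 on quantile normalization and on these equal totals. No member changed direction under an alternative except Tfrc (-0.03 to 0.38). The members that moved by more than the spread between libraries were Hmox1 (-1.37), Trf (-1.47) and Ftl1 (-1.04) on quantile normalization, Fth1 (-1.35) and Ftl1 (-1.22) on equal totals without mitochondrially encoded genes, and Steap3 (2.25) with a pseudocount of 10. Steap3 was not tested with a mean of at least 50. On quantile normalization the ferritin shares without mitochondrially encoded genes were 0.310% in CX3CR1- and 0.691% in CX3CR1+ cells, and the cause was not tested. Without single libraries they ranged from 0.246 to 0.273% and from 0.602 to 0.648%. The groups share no replicate numbers in the labels. A block of adjacent library numbers, which no label calls a pairing, gave 12 lower and 4 higher, with Bmp6 (adjusted p = 0.0617) and Slc25a38 (0.0517) lost. Values near 3 reads, as in the CX3CR1+ libraries for Heph, Nqo1 and Bmp6, limit what depth can show.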
